A study of Mus musculus with 8 samples.

Results

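Transcripts of the EGF (epidermal growth factor) family ligands Tgfa, Nrg1, Nrg2 and Nrg3 and of the ErbB receptors Egfr, Erbb2, Erbb3 and Erbb4 were examined in the lateral ganglionic eminence (LGE), an embryonic swelling of the ventral forebrain whose progenitors form the striatum and interneurons of the olfactory bulb. These 8 genes were chosen by name, as ligands of the pallial-subpallial boundary and their receptors. Of them 6 were analysed, among 12843 genes listed; Egfr and Erbb3 were not analysed here. The tissue was dissected from E12.5 mouse embryos (E, embryonic day), collected from crosses of Gsx2RA/+ with Gsx2EGFP/+ mice. The mutant group comprised 4 libraries of the genotype Gsx2EGFP/Gsx2RA, labelled null for the homeobox gene Gsx2 and carrying both alleles in the germline, and the control group 4 libraries labelled wild type. The sources used here do not give what each allele changes in the gene, nor whether embryos were pooled into a library, so the p-values cover the spread between these samples, which may be technical. Each library goes by the number in its column name, 5, 6, 11 and 12 for null-labelled and 1, 2, 7 and 8 for wild type.

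The ligands of this family are membrane-bound precursors that proteases release, or that act on neighbouring cells. TGF-alpha, the product of Tgfa, binds the EGF receptor, whereas neuregulins bind ErbB3 and ErbB4; ErbB2 has no known ligand of its own and works as the partner of the other receptors. Receptor pairs signal through the Ras-ERK and PI3-kinase routes. In the embryonic forebrain Tgfa, Nrg1 and Nrg3 are known from the antihem, a strip of progenitors at the pallial-subpallial boundary where cortex meets LGE, and Nrg1 with Erbb4 is known for guiding interneurons towards the cortex.

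Depth was 16031458 to 18019214 reads per library, summed over listed genes. Levels are in RPKM (reads scaled to kilobases of gene and to library size), with the mean ± SD over 4 libraries of each genotype. Each log2 fold change is the null-labelled mean minus the wild-type mean of log2(RPKM + 1), a scale that shrinks changes of low genes, and adjusted p-values come from limma with Benjamini-Hochberg adjustment over 11395 genes whose mean reached 1 RPKM in 1 or both genotypes. Gsx2 RNA itself averaged 55.2 ± 7.11 RPKM in null-labelled and 23.5 ± 2.16 RPKM in wild-type libraries (SD, n = 4 each), so RNA summed over the gene gave no check of the genotype labels. Of the markers listed for subpallial GABAergic neurons (Dlx1, Dlx2, Dlx5, Dlx6, Gad1, Gad2 and Slc32a1), 7 of 7 were present in every library. Their summed level was 44.0 to 73.9 RPKM in null-labelled and 470 to 562 RPKM in wild-type libraries. This list was chosen with earlier results of these data known.

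The family changed in both directions. Tgfa and Nrg3 rose in null-labelled libraries, Nrg1 and Erbb4 fell, and Erbb2 did not pass the threshold. Nrg2 was too low for the filter and was not tested, which left 5 of the 8 genes in the test. Of these 5, 4 had an adjusted p under 0.05 (2 of them higher, 2 lower), where 28.5% of all genes tested passed (13.8% higher and 14.6% lower). The libraries of the genotypes did not overlap in 3 of the 5, and in 30.9% of all genes tested. The median log2 fold change of the 5 genes was 0.0025, against -0.01 over all genes tested.

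The stretches of 250 bases upstream of the RefSeq start are given for the 3 members past the threshold that the table of RefSeq promoters (GRCm38.p6) held, 2 that were higher and 1 that was lower, so that the members can be compared in base composition. Each is written 5′ to 3′ on the strand of its gene. Capitals mark the GC box GGGCGG or its reverse complement CCGCCC.
Tgfa, chr6:86194972-86195221, plus strand: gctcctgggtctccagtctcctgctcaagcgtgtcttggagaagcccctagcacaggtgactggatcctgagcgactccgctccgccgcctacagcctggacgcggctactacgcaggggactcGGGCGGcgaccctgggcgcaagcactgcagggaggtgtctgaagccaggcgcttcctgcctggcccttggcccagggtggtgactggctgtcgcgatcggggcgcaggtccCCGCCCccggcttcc
Nrg3, chr14:39473089-39473338, minus strand: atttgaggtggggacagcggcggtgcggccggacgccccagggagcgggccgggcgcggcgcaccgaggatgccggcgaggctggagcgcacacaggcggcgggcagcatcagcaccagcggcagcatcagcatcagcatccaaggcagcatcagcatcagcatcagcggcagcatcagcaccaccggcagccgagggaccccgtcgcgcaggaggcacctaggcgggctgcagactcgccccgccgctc
Erbb4, chr1:69108060-69108309, minus strand: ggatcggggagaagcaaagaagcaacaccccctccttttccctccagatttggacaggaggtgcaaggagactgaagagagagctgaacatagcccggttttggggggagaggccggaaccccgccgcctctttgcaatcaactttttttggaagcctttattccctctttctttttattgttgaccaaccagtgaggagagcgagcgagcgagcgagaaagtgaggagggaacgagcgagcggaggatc
The Tgfa window holds 2 GC boxes, 1 on either strand, and the Nrg3 and Erbb4 windows hold 0; 32.7% of 32851 RefSeq promoter windows of this length hold at least 1. G and C make up 69.2% of the Tgfa, 72.4% of the Nrg3 and 54.0% of the Erbb4 window, against a median of 52.4% over all windows. The Nrg3 window has 27 CpG dinucleotides, the Tgfa window 19 and the Erbb4 window 12, where the median window has 6. The homeodomain core TAATTA, searched on both strands (it is its own reverse complement), occurs in 4.84% of windows and in 0 of these 3.

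Tgfa encodes TGF-alpha, a ligand of the EGF receptor. Its level was 3.02, 3.32, 2.83 and 2.66 RPKM in null-labelled libraries 5, 6, 11 and 12, and 1.48, 1.43, 0.962 and 1.45 RPKM in wild-type libraries 1, 2, 7 and 8. The genotypes did not overlap, and wild-type library 7 stood below its 3 companions. The means were 2.96 ± 0.284 RPKM in null-labelled and 1.33 ± 0.248 RPKM in wild-type libraries (SD, n = 4 each), 2.22 times as high in the mutant, and the log2 fold change was 0.77 ± 0.09 (SE, adjusted p = 0.000321). A change at least this large in size was seen in 3.27% of genes tested. The reads behind these levels numbered 259 to 332 per null-labelled and 102 to 148 per wild-type library.

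Nrg1, the neuregulin best known for its roles in Schwann cells, heart and interneuron migration, had the highest RPKM of the analysed members in every library and, on the log2(RPKM + 1) scale, the largest change in size among the members tested. It stood at 6.85, 6.44, 4.83 and 5.23 RPKM in null-labelled libraries 5, 6, 11 and 12, and at 11.4, 10.7, 12.2 and 11.03 RPKM in wild-type libraries 1, 2, 7 and 8. All null-labelled libraries lay below all wild-type libraries, and within the null-labelled group libraries 5 and 6 lay above 11 and 12. Nrg1 fell to a mean of 5.84 ± 0.960 RPKM in null-labelled libraries, against 11.3 ± 0.618 RPKM in wild type (SD, n = 4 each), a ratio of 0.515. The log2 fold change was -0.86 ± 0.09 (SE, adjusted p = 0.000166), a size reached by 2.65% of genes tested. Libraries held 236 to 317 reads of Nrg1 in the null-labelled and 498 to 596 in the wild-type group.

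Nrg3, a neuregulin largely restricted to the nervous system and a ligand of ErbB4, rose by a smaller amount. The null-labelled libraries 5, 6, 11 and 12 had 1.83, 1.87, 2.00 and 1.56 RPKM, and the wild-type libraries 1, 2, 7 and 8 had 1.25, 1.30, 0.850 and 1.26 RPKM. The groups did not overlap, and library 7 was again the lowest of the wild-type libraries. Mean levels were 1.82 ± 0.184 RPKM in null-labelled and 1.17 ± 0.212 RPKM in wild-type libraries (SD, n = 4 each), and the log2 fold change was 0.38 ± 0.09 (SE, adjusted p = 0.0118). With 4 libraries at a time the call was lost, at a log2 fold change of 0.32 for libraries 5 and 6 against 1 and 2 (adjusted p = 0.0789, limma) and 0.44 for 11 and 12 against 7 and 8 (adjusted p = 0.0782, limma).

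Nrg2, the remaining neuregulin of the set, was near the lower limit of what these libraries measure. It had 0.642, 0.418, 0.422 and 0.379 RPKM in null-labelled libraries 5, 6, 11 and 12, and 0.370, 0.175, 0.167 and 0.280 RPKM in wild-type libraries 1, 2, 7 and 8. The lowest null-labelled library and the highest wild-type library each rested on 23 reads, so the gap between these nearest libraries was smaller than counting error. Summed over 4 libraries, 117 reads were found in the null-labelled group (95% exact Poisson interval 96.8 to 140) and 62 in the wild-type group (47.5 to 79.5). These intervals do not overlap, but they cover counting error only. When genes of all levels were tested, Nrg2 had a log2 fold change of 0.23 ± 0.09 (SE) and did not pass (limma, adjusted p = 0.0932). The authors' deposited table lists Nrg2 with a log2 fold change of 0.92 and an FDR of 0.0125.

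**Figure D1:**
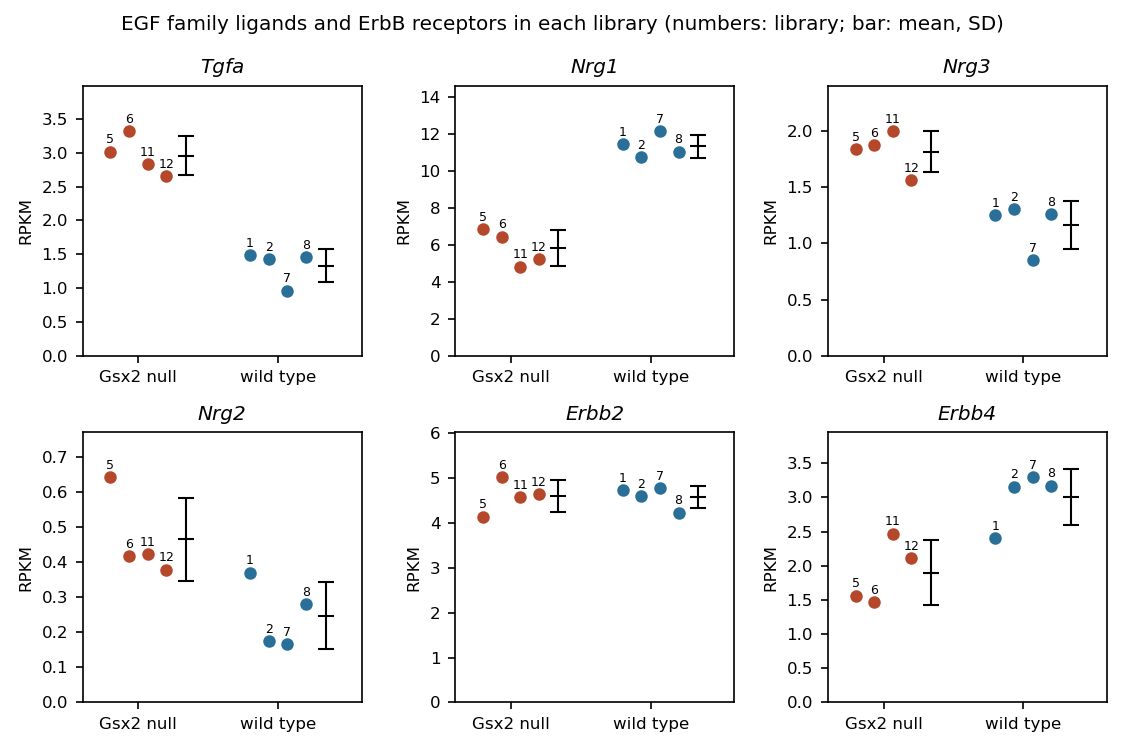
RPKM of the 6 analysed members in each library, null-labelled (red) left of wild type (blue); each point is a library with its number, the bar beside each group is the mean with SD (n = 4), and every axis starts at 0 with its own scale. Tgfa and Nrg3 lie higher and Nrg1 lower in all 4 null-labelled libraries, Erbb2 overlaps fully, and in Erbb4 null-labelled library 11 (2.47 RPKM) lies just above wild-type library 1 (2.40 RPKM).

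Because Tgfa and Nrg3 rose while Nrg1 fell, the make-up of the ligand RNA differed between the genotypes. Nrg1 made up 55.5%, 53.5%, 47.9% and 53.2% of the summed RPKM of the 4 ligands in null-labelled libraries 5, 6, 11 and 12, and 78.6%, 78.7%, 86.0% and 78.7% in wild-type libraries 1, 2, 7 and 8. The share of Tgfa averaged 26.8 ± 1.62% in null-labelled and 9.47 ± 1.78% in wild-type libraries (SD, n = 4 each), and that of Nrg3 16.5 ± 2.24% in null-labelled and 8.29 ± 1.56% in wild-type libraries. The sum of the 4 ligands was 11.1 ± 1.30 RPKM in null-labelled and 14.1 ± 0.375 RPKM in wild-type libraries, without overlap between genotypes. In RPKM, Nrg1 stood 1.70 to 2.27 times as high as Tgfa in null-labelled and 7.49 to 12.6 times as high in wild-type libraries. These shares follow from the members' own changes and were not tested. Sums, shares and ratios between genes also rest on the lengths behind RPKM, so they do not show whether total ligand RNA fell. For Nrg1 the values imply 2.81 kb, where its exons in GENCODE M21 cover 10.4 kb. In reads, without scaling to length, the null-labelled group held 1195 of Tgfa and 1089 of Nrg1, and the wild-type group 537 and 2124.

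**Figure D2:**
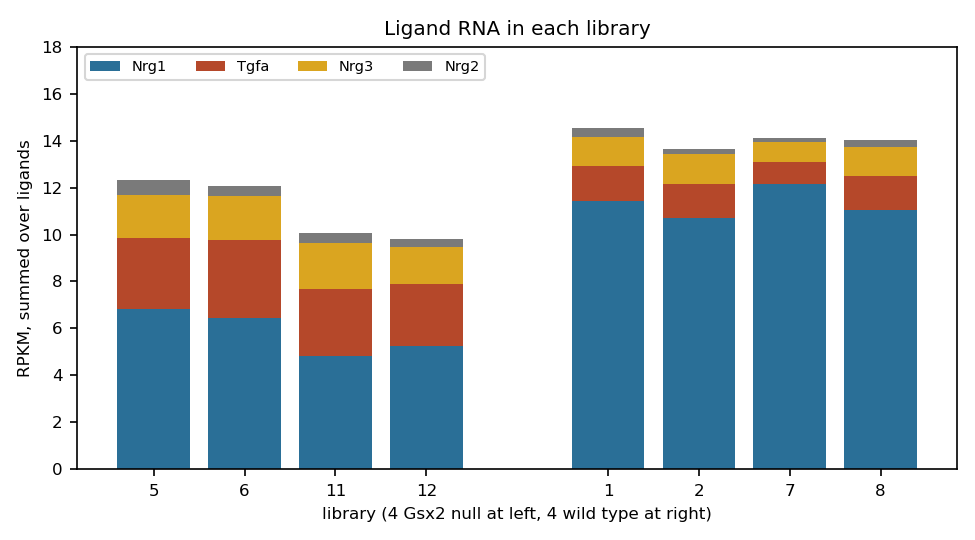
Stacked RPKM of Nrg1, Tgfa, Nrg3 and Nrg2 (from the base up) in each library, 4 null-labelled at left and 4 wild type at right, on an axis from 0. The Nrg1 segment is between 4.83 and 6.85 RPKM in null-labelled and between 10.7 and 12.2 RPKM in wild-type libraries, while the Tgfa and Nrg3 segments are taller in the null-labelled libraries. Heights of different genes, and their sum, depend on the lengths behind RPKM.

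Of the receptors, Erbb4, which binds neuregulins and is known from migrating and mature interneurons, fell. Null-labelled libraries 5, 6, 11 and 12 had 1.56, 1.46, 2.47 and 2.11 RPKM, and wild-type libraries 1, 2, 7 and 8 had 2.40, 3.16, 3.29 and 3.17 RPKM. The groups overlapped, since null-labelled library 11 lay above wild-type library 1, and both libraries 5 and 6 lay below 11 and 12. The mean was 1.90 ± 0.474 RPKM in null-labelled and 3.01 ± 0.406 RPKM in wild-type libraries (SD, n = 4 each), a ratio of 0.632, and the log2 fold change was -0.47 ± 0.12 (SE, adjusted p = 0.0155). Between 387 and 696 reads per null-labelled and between 635 and 924 reads per wild-type library lay behind these levels. A decrease was called by limma without any 1 library (adjusted p = 0.00693 to 0.0456).

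Erbb2, the receptor without a known ligand, stood at 4.14, 5.01, 4.58 and 4.65 RPKM in null-labelled libraries 5, 6, 11 and 12, and at 4.73, 4.59, 4.77 and 4.23 RPKM in wild-type libraries 1, 2, 7 and 8. The ranges overlapped throughout. The means were 4.60 ± 0.357 RPKM in null-labelled and 4.58 ± 0.245 RPKM in wild-type libraries (SD, n = 4 each), and the log2 fold change of 0.0025 had a 95% limma interval of -0.14 to 0.14 (adjusted p = 0.981). Erbb4 amounted to 0.416 ± 0.106 of Erbb2 in null-labelled and 0.659 ± 0.104 in wild-type libraries (SD, n = 4 each). The ranges of this ratio overlapped, at 0.292 to 0.539 in null-labelled and 0.508 to 0.749 in wild-type libraries.

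**Figure D3:**
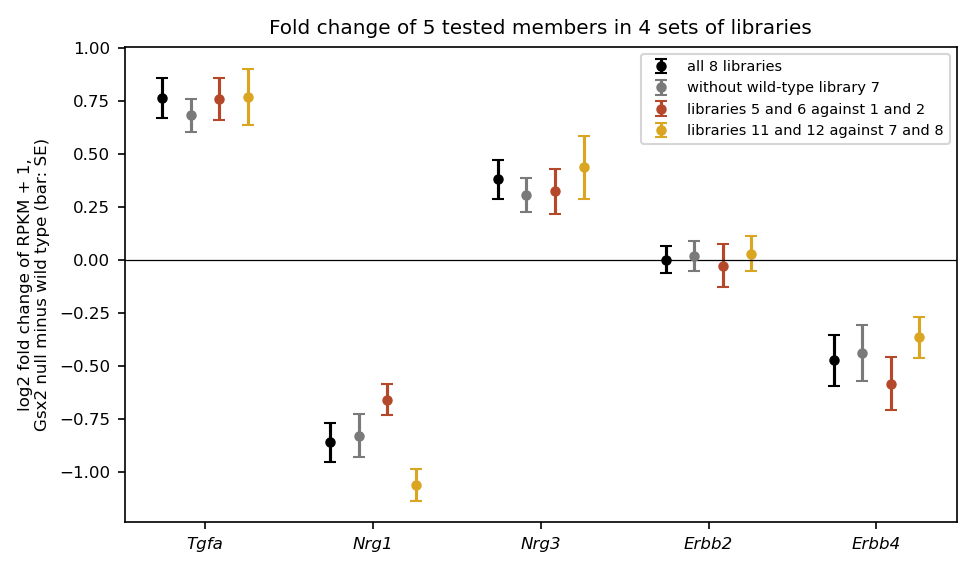
Log2 fold change of RPKM + 1 (null-labelled minus wild type, bars are the SE from limma) of the 5 tested members with all 8 libraries, without wild-type library 7, and in the 2 subsets of 4 libraries. Each of Tgfa and Nrg3 is above 0, each of Nrg1 and Erbb4 below 0 in all 4 sets, and Erbb2 lies near 0.

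The scale of the test shrinks these values unequally, as the members have low RPKM. On recovered reads (limma voom) the log2 fold changes were 1.17 for Tgfa, -0.97 for Nrg1, 0.66 for Nrg3 and -0.67 for Erbb4, so that Tgfa had the largest change there. With a pseudocount of 5 the log2 fold changes were 0.33 for Tgfa, -0.60 for Nrg1, 0.14 for Nrg3 and -0.22 for Erbb4. Within the subset of libraries 1, 2, 5 and 6 the log2 fold change of Nrg1 was -0.66, and within 7, 8, 11 and 12 it was -1.06. For Erbb4 the values were -0.58 in libraries 1, 2, 5 and 6 and -0.36 in libraries 7, 8, 11 and 12. For Tgfa they were 0.76 in libraries 1, 2, 5 and 6 and 0.77 in libraries 7, 8, 11 and 12. The labels name no batch for these numbers.

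In RPKM, which is a level per length, the order of the members in all 4 wild-type libraries was Nrg1, Erbb2, Erbb4, Tgfa, Nrg3 and Nrg2. In all 4 null-labelled libraries Tgfa stood above Erbb4, in the order Nrg1, Erbb2, Tgfa, then Nrg3 above Erbb4 in libraries 5 and 6 and Erbb4 above Nrg3 in libraries 11 and 12, with Nrg2 last. The neighbours Tgfa and Nrg3 differed by less than their spread in wild type (1.33 ± 0.248 and 1.17 ± 0.212 RPKM), as did Erbb4 and Nrg3 in null-labelled libraries (1.90 ± 0.474 and 1.82 ± 0.184 RPKM). Among all listed genes the mean of Nrg1 lay at the 39.9th percentile in null-labelled and the 58.3rd in wild-type libraries, and that of Tgfa at the 26.2nd in null-labelled and the 16.4th in wild-type libraries. The order between genes rests on the lengths the authors used: RPKM and the authors' average log2 CPM together imply 2.81 kb for Nrg1, 6.67 kb for Erbb2 and 16.1 kb for Erbb4, whereas the exons of these genes in GENCODE M21 cover 10.4, 5.21 and 12.4 kb. The order of the genes under another annotation was not tested, and a gene's ratio between genotypes does not depend on its length.

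Within the genotypes the members did not vary alike. In wild-type library 7, Tgfa and Nrg3 were lowest and Nrg1 and Erbb4 highest of the wild-type libraries. Genes of pallial glutamatergic neurons (Eomes, Tbr1, Neurod1, Neurod2, Neurod6 and Slc17a6), 6 of 6 of which rose in null-labelled libraries, had a summed level of 417 to 457.6 RPKM in the null-labelled group and of 154, 130, 39.1 and 138 RPKM in wild-type libraries 1, 2, 7 and 8, so library 7 was also lowest in these. In null-labelled libraries 5 and 6 the subpallial sum was 52.2 and 44.0 RPKM, below the 69.8 and 73.9 RPKM of libraries 11 and 12, which is the order that Erbb4 showed, whereas Nrg1 showed the reverse order. The part that the mix of pallial and subpallial cells has in the changes of the members was not tested, and in bulk tissue fewer cells of a type and less RNA per cell cannot be told apart. Without library 7 the log2 fold changes were 0.68 for Tgfa (adjusted p = 0.000339), 0.31 for Nrg3 (adjusted p = 0.0253), -0.83 for Nrg1 (adjusted p = 0.000544) and -0.44 for Erbb4 (adjusted p = 0.0447), all by limma.

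**Figure D4:**
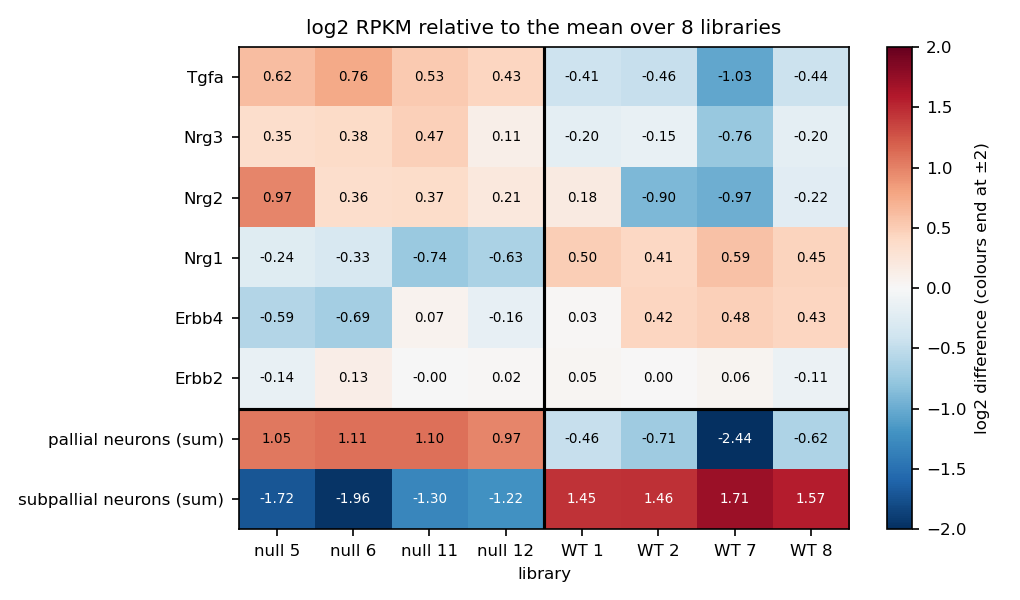
Log2 RPKM of 6 members, and of the summed pallial and subpallial neuron markers, in each library relative to the row's own mean over 8 libraries (rows: genes or sums, columns: libraries, null-labelled left; colours end at ±2). Library 7 has the lowest Tgfa (-1.03) and Nrg3 (-0.76), and the lowest pallial sum (-2.44).

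Markers of other cell types that the dissection could hold were set beside these values. Of the 8 genes listed for neural crest and Schwann precursors, cells that depend on neuregulin, 3 were analysed. Ngfr rose (log2 fold change 0.37 ± 0.11, SE, limma adjusted p = 0.0273). Its call was lost without any 1 of libraries 2, 5, 7, 11 or 12 (0.0604 to 0.0722). The other two, Fabp7 (also in the boundary list) and Itga4, did not pass, and the summed level was 480 to 752 RPKM in null-labelled and 441 to 510 RPKM in wild-type libraries, nearly all of it Fabp7. Meningeal genes, led by Col1a1 and Col3a1, had 0 of 3 past the threshold by limma (0 at an unadjusted p under 0.05 and 0 with voom), with summed levels of 3.39 to 10.7 RPKM in null-labelled and 3.32 to 4.14 RPKM in wild-type libraries, the highest in null-labelled library 6. Vessel genes were lower in 3 of 6 cases (Cdh5, Kdr and Tek), where 14.6% of all genes tested passed as lower. The summed level of vessel genes was 22.0 to 29.6 RPKM in null-labelled and 29.5 to 34.5 RPKM in wild-type libraries. Microglial genes, among them C1qb and Cx3cr1, passed in 0 of 5 cases by limma (1 at an unadjusted p under 0.05, 0 with voom; summed level 10.01 to 14.3 RPKM in null-labelled and 8.81 to 11.01 RPKM in wild-type libraries). Blood genes passed in 0 of 4 (0 at an unadjusted p under 0.05, 0 with voom), and their sum, mostly Hbb-y with Hba-a1 next, was 1001 to 1464 RPKM in null-labelled and 1049 to 1877 RPKM in wild-type libraries. Among genes of cortical interneurons, which carry ErbB4, Lhx6 fell (-0.54 ± 0.14, adjusted p = 0.0146), Cxcr4 rose (0.40 ± 0.06, adjusted p = 0.00149) and 3 of 5 did not pass (summed level of 6 genes 41.3 to 63.7 RPKM in null-labelled and 47.4 to 55.6 RPKM in wild-type libraries). The part of these cells in the change of Erbb4 was not tested.

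For the pallial-subpallial boundary, where Tgfa, Nrg1 and Nrg3 are known as markers, 8 further genes were listed. Of these 5 rose, 0 fell and 3 did not pass (Fgf7, Fabp7 and Tcf7l2), with a median log2 fold change of 0.76. Over all genes tested 13.8% passed as higher and 14.6% as lower. Of the members known from the boundary, Tgfa and Nrg3 rose and Nrg1 fell. Dbx1, a homeobox gene of ventral pallial progenitors, averaged 15.4 ± 3.42 RPKM in null-labelled and 0.415 ± 0.432 RPKM in wild-type libraries. Sfrp2, a secreted Wnt modulator of the antihem, averaged 26.7 RPKM in null-labelled and 16.0 RPKM in wild-type libraries (0.67, limma adjusted p = 0.00482), and Sema5a, which encodes a guidance protein, rose by 1.08 ± 0.13 (adjusted p = 0.000297). Pax6 and Neurog2 rose by 0.84 and 2.56 (limma adjusted p = 0.00192 and 0.00157). Among wild-type libraries, Pax6, Neurog2, Dbx1 and Sema5a were lowest in library 7, as was the pallial neuron sum, while Sfrp2 was not. Whether the rise of these genes is particular to the boundary was not tested. Fgf7, another secreted factor of the antihem, had 0.867 to 1.12 RPKM in null-labelled and 0.722 to 0.976 RPKM in wild-type libraries and did not pass.

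The other ligands analysed were Egf, at 0.459 ± 0.139 RPKM in null-labelled and 0.452 ± 0.0635 RPKM in wild-type libraries and not tested, and Hbegf, which encodes heparin-binding EGF-like growth factor. Hbegf averaged 1.19 ± 0.0978 RPKM in null-labelled and 1.53 ± 0.186 RPKM in wild-type libraries (SD, n = 4 each), and its log2 fold change of -0.21 ± 0.08 did not pass (limma adjusted p = 0.0785).

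Further genes of the pathway were taken from 5 lists with 92 genes, of which 71 were tested. Of these 14 rose and 4 fell, 25.4% in all, near the 28.5% of all genes tested. Their median log2 fold change was 0.01 and the median of its size 0.10, against 0.12 over all genes tested. Without wild-type library 7 the counts were 10 higher and 2 lower, and without null-labelled library 12 or wild-type library 2 the lower count was 2 as well.

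Among genes listed for the cutting of ligands or receptors, which are not all proteases themselves, 3 of 10 rose and 0 fell. For this list and the next, the shares of all genes tested were 13.8% higher and 14.6% lower. Rhbdl3, a rhomboid-like membrane protein, rose by 0.44 ± 0.09 (limma adjusted p = 0.00450), and Ncstn, a subunit of gamma-secretase, which cuts ErbB4, by 0.20 ± 0.05 (adjusted p = 0.0169). Bace1, the protease that processes Nrg1, averaged 10.9 ± 0.563 RPKM in null-labelled and 9.51 ± 0.383 RPKM in wild-type libraries (0.18 ± 0.05, adjusted p = 0.0229), a call lost without any 1 of libraries 7, 8, 11 or 12 (0.0511 to 0.0659). The sheddase genes Adam10, Adam17 and Adam19 did not pass. Of inhibitors and turnover genes 3 of 13 rose and 2 fell: Lrig2 (0.21 ± 0.05) and the ubiquitin ligase gene Cblb (0.18 ± 0.04) were among the higher and Socs4 (-0.25 ± 0.07) among the lower, with the call of Socs4 lost without either of libraries 6 or 12 (adjusted p = 0.0537 to 0.0586). Nedd4, another ubiquitin ligase gene, averaged 335 ± 14.7 RPKM in null-labelled and 379 ± 14.6 RPKM in wild-type libraries (adjusted p = 0.0426), and no longer passed without any 1 of libraries 1, 2, 5, 7, 11 or 12 (0.0583 to 0.106).

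Of adaptors and kinases of the cascade 4 of 34 rose and 1 fell, with a median log2 fold change of -0.02. The shares of all genes tested were 13.8% higher and 14.6% lower. Among the higher ones were genes of PI3-kinase subunits, namely Pik3r1 (0.26 ± 0.06), Pik3cb (0.23 ± 0.06) and Pik3r3 (0.18 ± 0.04). Pik3cb no longer passed without any 1 of libraries 6, 7 or 11 (limma adjusted p = 0.0528 to 0.0558). The lower gene was Mtor, a kinase of cell growth (-0.17).

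Of genes that respond to ERK, 4 of 13 rose and 1 fell, where 13.8% of all genes tested passed as higher and 14.6% as lower. The 8 that did not pass were Dusp1, Dusp6, Ier2, Spry1, Spred1, Spred2, Etv1 and Etv5. Dusp4, a nuclear phosphatase that ERK signalling induces, had the largest change of the pathway lists (log2 fold change 1.16 ± 0.19, SE, limma adjusted p = 0.00153). It averaged 40.0 ± 7.74 RPKM in null-labelled and 17.5 ± 4.56 RPKM in wild-type libraries (SD, n = 4 each). Wild-type library 7 was the lowest, at 11.3 RPKM, and without it the log2 fold change was 0.98 (limma adjusted p = 0.00123). Jun, a subunit of AP-1, rose by 0.36 ± 0.06 (adjusted p = 0.00252), and the feedback inhibitor gene Spry2 by 0.35 (adjusted p = 0.0125). Spred3, another feedback inhibitor gene, averaged 7.89 ± 0.782 RPKM in null-labelled and 5.98 ± 1.30 RPKM in wild-type libraries (adjusted p = 0.0462), and no longer passed without any 1 of libraries 2, 5, 6, 7, 8 or 12 (0.0664 to 0.118) and when genes of all levels were tested (0.0516). Myc fell to 5.10 ± 0.476 RPKM in null-labelled libraries, against 7.44 ± 0.182 RPKM in wild type (-0.47 ± 0.06, adjusted p = 0.000447).

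**Figure D5:**
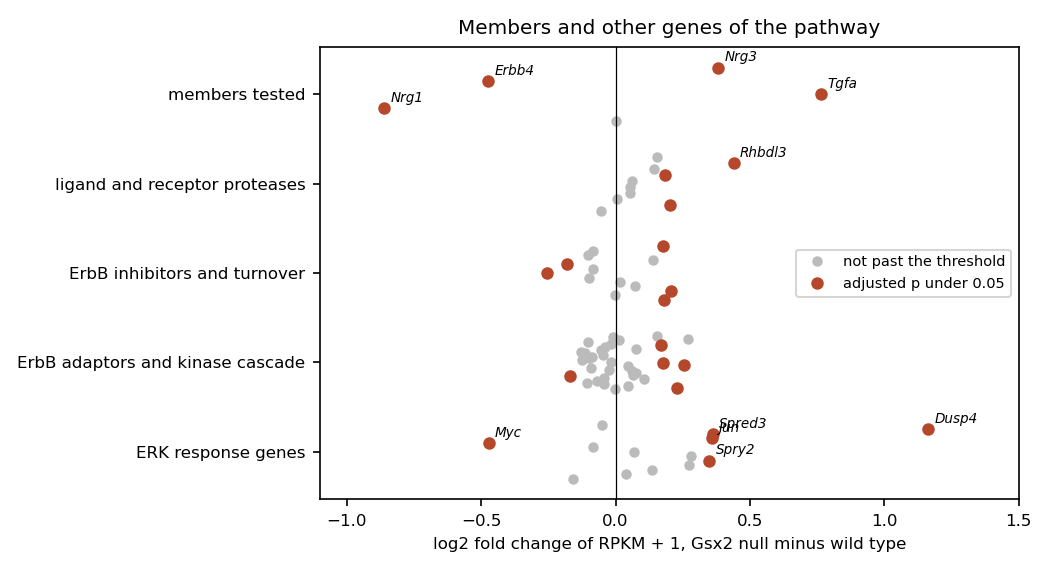
Log2 fold change of RPKM + 1 (null-labelled minus wild type, horizontal axis) of the tested members and of 4 pathway lists, a point per gene, spread vertically only for legibility; red points passed an adjusted p of 0.05 and those beyond 0.3 in size are named. Tgfa and Nrg1 lie farther from 0 than every pathway gene except Dusp4, and most adaptors lie near 0.

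Among transcripts of proteins that bind neuregulin receptors at synapses or in the nucleus, 2 of 9 were higher and 2 lower. Of all genes tested, 13.8% passed as higher and 14.6% as lower. Dlg4, which encodes the scaffold PSD-95 that anchors ErbB4, rose by 0.34 ± 0.06 (limma adjusted p = 0.00245), and its relative Dlg1 fell (-0.27 ± 0.05, adjusted p = 0.00465). Dlg2 averaged 2.27 ± 0.332 RPKM in null-labelled and 1.64 ± 0.125 RPKM in wild-type libraries (adjusted p = 0.0222), and no longer passed without any 1 of libraries 5, 7, 8 or 12 (0.0524 to 0.0594). Tab2, which binds the released ErbB4 fragment, averaged 33.4 ± 1.09 RPKM in null-labelled and 36.7 ± 1.07 RPKM in wild-type libraries (adjusted p = 0.0456), and no longer passed without any 1 of libraries 1, 2, 5, 6, 7, 8 or 12 (0.0625 to 0.116).

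The genes nearest in pattern to a member over the 8 libraries were found by the root mean square difference of log2(RPKM + 1), each gene centred on its own mean. For Tgfa, whose own pattern had a root mean square of 0.401, they were Abcd2, a peroxisomal transporter gene (difference 0.0475), and Nfasc, which encodes neurofascin (0.0503). For Nrg1 (0.450) they were the calcium channel subunit gene Cacna2d3 (0.118) and Zfp385b (0.123), both farther off than the neighbours of Tgfa. For Nrg3 (0.220) they were Cttnbp2 (0.0368) and the adhesion gene Cadm2 (0.0433), and for Erbb4 (0.292) Dact1, a Wnt pathway gene (0.0881), and Zeb2os (0.0942). For Erbb2 (0.0691) they were Cryz (0.0370) and Nnt (0.0379). These are descriptions over libraries that share the contrast between the genotypes.

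In the genome (GRCm38, GENCODE M21) Tgfa (ENSMUSG00000029999.14) lies on chromosome 6 from 86195223 to 86275719, Nrg1 (ENSMUSG00000062991.7) on chromosome 8 from 31814551 to 32884029 and Nrg3 (ENSMUSG00000041014.17) on chromosome 14 from 38368952 to 39473088. Erbb4 (ENSMUSG00000062209.15) lies on chromosome 1 from 68032186 to 69108059 and Erbb2 (ENSMUSG00000062312.5) on chromosome 11 from 98412470 to 98437716. Nrg1 spans 1069 kb, Nrg3 1104 kb, Erbb4 1076 kb and Tgfa 80.5 kb. Exons of other genes on the opposite strand overlap 1.82% of the exon length of Tgfa (Gm43917), 4.66% of that of Nrg1 (Gm26578) and 0.173% of that of Erbb2 (Mien1), and the sources used here do not give the strand setting of the counting.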

How the data were processed

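RNA of 8 LGE libraries was measured; per the labels' protocols, polyadenylated RNA entered a stranded dUTP library and single-end sequencing. Tools named in the submitters' processing notes are STAR, featureCounts and edgeR with mm10. The sources used here do not give versions, annotation or strand setting. The authors deposited RPKM per library, with their log2 fold change and average log2 CPM, p-value and FDR, per the file headers; the deposited log2 fold change is positive where null-labelled libraries are higher (100% of 1782 genes above 0.5 in size). Column names gave genotypes (Germline was read as null, from the series title), not single samples; 0 columns were left out.

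As the table holds RPKM, genotype was fitted to log2(RPKM + 1) by limma 3.58.1 (R 4.3.3; two-sided, intensity trend) over genes with a mean of at least 1 in either genotype (11395; 1448 were not tested). The script was tested on simulated data. Whole reads were recovered from RPKM steps for 100% of genes (tolerance 1e-06 of a read, 44 genes with a common factor restored from the average log2 CPM) and gave the depths and the voom alternative. The 8 members, the 15 lists and the tests were chosen with earlier results of these data known. Named were all members, Gsx2, up to 4 called genes of each list by size of change (the 2 highest where none passed) and the 2 genes nearest in pattern to each member. A result that this rule names is not reported here. Chosen after their values were seen were Spry2, Mtor, Sfrp2, Fgf7, Adam10, Adam17, Adam19, Itga4 and Fabp7. The same holds for Tcf7l2, Dusp1, Dusp6, Ier2, Spry1, Spred1, Spred2, Etv1 and Etv5.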

Additional observations from a re-analysis of the deposited data

Results flagged for a closer look

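In a group of 4, a library was singled out where its gap to the nearest other exceeded Dixon's 95% critical value; chance alone does this in about 1 in 20 groups, and 104 groups of 52 named genes were examined, of which 12 met the rule. Wild-type library 7 was low in Tgfa (0.962 RPKM) and Nrg3 (0.850 RPKM), and wild-type library 1 in Erbb4 (2.40 RPKM), while null-labelled library 5 was high in Nrg2 (0.642 RPKM, from 40 reads). Among pathway genes, null-labelled library 5 was low in Rhbdl3 (10.4 RPKM) and wild-type library 7 in Pik3cb (3.33 RPKM). Among markers, null-labelled library 6 was high in Col1a1 (3.11 RPKM) and Col3a1 (3.19 RPKM), library 11 in Tek (1.26 RPKM) and library 12 in Cxcr4 (13.5 RPKM), null-labelled library 5 was low in Kdr (4.86 RPKM) and wild-type library 8 in Gad1 (27.1 RPKM). The causes were not tested.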

How the results depend on the processing

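Tgfa, Nrg1 and Erbb4 kept their direction and their call under all 16 alternatives (pseudocounts of 0.1 and 5, no filter, 2 other scalings, voom on recovered reads, each library left out, 2 subsets of libraries), and Erbb2 passed under none of them (limma adjusted p = 0.673 to 0.983). Erbb4 came nearest to the threshold without null-labelled library 5 (adjusted p = 0.0456). Nrg3 kept its direction under all 16 and its call under 14: its log2 fold change was 0.32 within libraries 1, 2, 5 and 6 and 0.44 within 7, 8, 11 and 12, where the number of members past the threshold as higher was 1 in either subset. These subsets have 2 libraries a group. Within libraries 1, 2, 5 and 6, 764 genes passed as higher, and 4 pathway genes as higher and 2 as lower; within 7, 8, 11 and 12, 1048 genes passed as lower. Leaving out 1 library, the pathway genes past the threshold as lower numbered 2 to 4. Of 704 values for 44 other named genes, 637 kept direction and call, 67 lost the call and 0 reversed. The call was lost at least once in 19 of these genes. Lrig2, Cblb, Kdr and Tek were among those that lost it in both subsets of libraries. Jun, Dlg1, Ncstn, Pik3r1 and Pik3r3 lost it within libraries 1, 2, 5 and 6, and Cdh5 within 7, 8, 11 and 12. Levels of Nrg2 are limited by 11 to 40 reads per library. No paired analysis was possible because the column names carry none of the replicate numbers of the labels.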
